A study of Homo sapiens with 3 samples.

Results

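The interferon-stimulated genes described here are 49 human genes that cells switch on in answer to interferon, taken by gene symbol from the probe sets of the array. A gene was represented by the probe set, out of those annotated to its symbol alone, with the highest mean signal over the 3 arrays, and its other probe sets served as a check. Of the 49 genes, 48 had such a probe set, out of 19775 genes in all, and STAT2 is not analysed here. The gene DDX58, which encodes the sensor RIG-I, carries its current symbol RIGI below.

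The cells were KMS11, an established human multiple myeloma line with the t(4;14) translocation, which places the histone methyltransferase gene MMSET (current symbol NSD2) under immunoglobulin enhancers. There were 3 groups of 1 array each, with nothing in the labels on repeat cultures: cells given the control hairpin shLuc, cells given the hairpin shMMSET#2 and cells given the hairpin shMMSET#4. All 3 groups were exposed to lentivirus and polybrene and were harvested at 48 h, so no array shows uninfected cells. Short hairpin RNAs silence a transcript by RNA interference, and the series title concerns the control by MMSET of transcription factors that such cells need to survive.

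Interferons are secreted proteins that bind paired receptors on the cell surface. The receptors act through the kinases JAK1 and TYK2 and a complex of STAT proteins with IRF9, which binds the interferon-stimulated response element in target promoters. The induced proteins sense foreign RNA, block the entry, translation or release of viruses, tag proteins with the ubiquitin-like protein ISG15, and feed back on the signal. Many of them are also made at a low level in cells that were given no interferon.

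With no replicate there is no test. A gene is called higher or lower where its floored signal differs from shLuc by at least 1.5-fold, the floor being 41.2, the 40th percentile of all signals. Where 1 of the arrays lay at or under the floor, the ratio is only a lower limit, given as "at least". Both hairpins are compared with the same shLuc array, so their ratios are not independent, and each is given side by side. The available yardstick is the gap separating the 2 hairpin arrays, part of which is real difference. Over the 11736 genes whose mean log2 signal lay above the pooled median signal, these arrays differed by 1.27-fold for the median gene and by up to 2.38-fold for 95% of genes. By signal decile the fold that held 95% of genes ran from 1.81 in the brightest decile to 3.02 in the decile second from the dimmest.

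The median signal was 77.4 on the shLuc array, 62.0 on shMMSET#2 and 59.5 on shMMSET#4, at equal trimmed means of 500.1. The signal of NSD2 was 10299.8 for shLuc, 7032 for shMMSET#2 and 7476 for shMMSET#4 on its brightest probe set, 1.46-fold and 1.38-fold lower, and its 6 probe sets had log2 ratios between -2.69 and -0.54 with shMMSET#2 and between -1.62 and 0.05 with shMMSET#4. The plasma cell markers fixed for this check were above the floor on every array (8 of 8), and their summed signal was 58364 for shLuc, 30827 for shMMSET#2 and 61238 for shMMSET#4. Of the 3 plasmacytoid dendritic cell markers, which mark a cell type known for making interferon, CLEC4C and LILRA4 were at or under the floor on every array, and IL3RA had signals of 176, 402 and 359. The summed signal of 4 T cell markers was 260, 146 and 134, and that of 3 myeloid markers was 174, 122 and 28.4. Of these, CD3G, CD2 and CD14 were at or under the floor on every array. The sums include such values under the floor, so they do not show that T cells or myeloid cells were present. For 3 B cell markers it was 258, 189 and 170, and for 3 fibroblast markers 355, 425 and 226. For 3 epithelial markers it was 8526, 4757 and 11145, most of it EPCAM (8099, 4391 and 10651). As a sign of RNA quality, the log2 gap from the 5' to the 3' control of ACTB was 1.70 for shLuc, 1.14 for shMMSET#2 and 1.14 for shMMSET#4, and for GAPDH it was 0.04, 0.10 and 0.00188. The part of RNA quality and of these marker sums in the ratios below was not tested, and fewer cells of a type cannot be told apart from less RNA per cell.

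Many interferon-stimulated genes had higher signals with the MMSET hairpins than with shLuc, and more of them, by larger folds, with shMMSET#2. With shMMSET#2, 25 of the 48 genes were higher, 4 were lower and 19 were neither, whereas over all 19775 genes 10.9% were higher and 17.1% were lower. With shMMSET#4, 18 were higher, 5 were lower and 25 were neither, against 11.6% higher and 15.9% lower over all genes. The median log2 ratio of the 48 genes was 0.62 with shMMSET#2 and 0.22 with shMMSET#4, and that of all genes was 0 with each. The members were chosen with earlier results of these data known, so their counts describe the list and are no independent evidence of its direction. Many genes of the whole table lie at the floor and cannot be called. Of the 48, 42 passed the filter on mean signal. Some, such as CMPK2 and PARP14, passed it through their hairpin arrays and so had to differ, and RSAD2 passed through shMMSET#2 alone. OAS1, at 65.5 with shLuc, also passed through its hairpin arrays. GBP2 passed mainly through its shLuc array, with signals of 246, 66.7 and 44.9, so its lower calls are partly set by the filter. These genes stay in the counts that follow. Among the 42, 25 were higher and 4 lower with shMMSET#2, beside 15.7% and 20.6% of the 11736 genes that passed. With shMMSET#4, 17 were higher and 5 lower, beside 16.4% and 18.5%. Some were higher by more than the 95% spread between the hairpin arrays in their own signal decile. With shMMSET#2 this held for 15 of the 42, beside 3.89% of the genes that passed, and with shMMSET#4 for 8, beside 4.31%. Those with both hairpins were DDX60, HERC5, IFI35, IFI44, IFIT1, IFIT3, OAS1 and PARP14. Those with shMMSET#2 alone were CMPK2, IFIH1, IFIT2, IFITM1, ISG15, OASL and RSAD2. The other higher calls among the 42 lay inside that spread. Lower by more than that spread was GBP2 with shMMSET#2, beside 5.39% of genes, and GBP1, GBP2, RIGI and SAMD9 with shMMSET#4, beside 3.94%. At 2-fold, 18 of the 42 were higher and 1 was lower with shMMSET#2, beside 5.7% and 9.3%, and 9 were higher and 4 were lower with shMMSET#4, beside 6.75% and 7.4%. With the arrays scaled to equal medians, 28 were higher and 2 lower with shMMSET#2, beside 30.9% and 11.2% of the genes that passed. With shMMSET#4 and that scaling, 24 were higher and 4 lower, beside 35.0% and 7.80%.

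**Figure D1:**
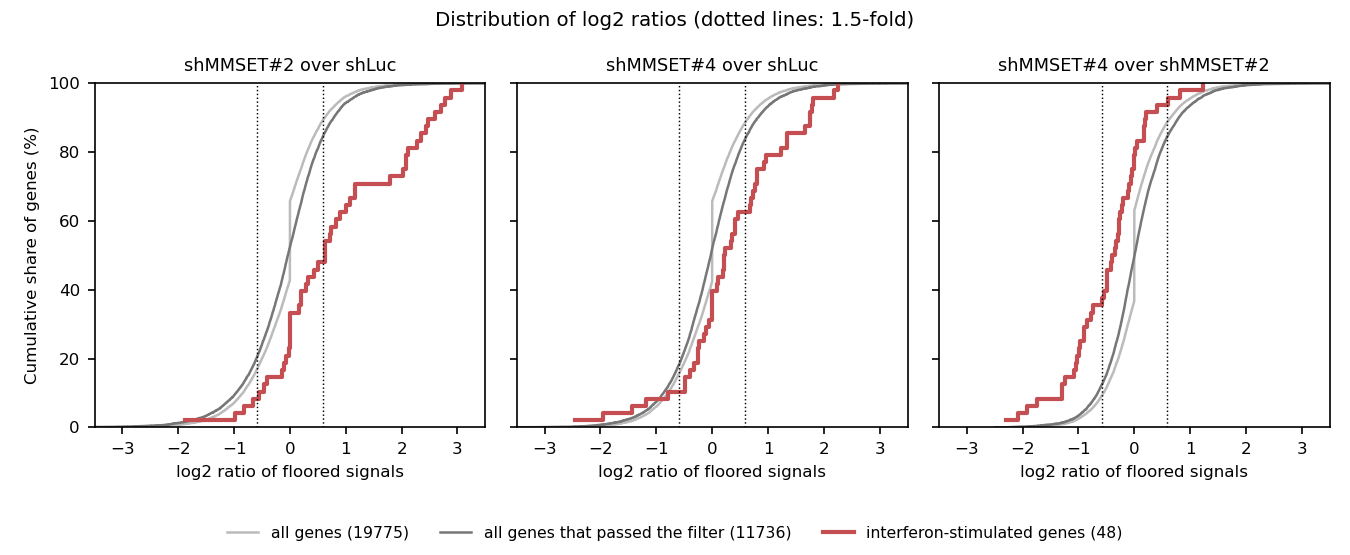
Cumulative share of genes (percent) against the log2 ratio of floored signals, for shMMSET#2 over shLuc, shMMSET#4 over shLuc and shMMSET#4 over shMMSET#2. The red line (48 interferon-stimulated genes) lies to the right of the grey lines (19775 genes, and the 11736 that passed the filter) in the first panel over most of its course, with a median of 0.62, and to the left of them in the last panel, with a median of -0.37.

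The upstream stretches that carry the interferon-stimulated response element are shown for 6 genes: 4 that had higher signals with both hairpins and 2, GBP1 and SAMD9, that had lower signals although their promoters hold a match too. The sequences are from RefSeq, build GRCh38.p14, read 5′ to 3′ on the strand of the gene, with 20 bases on either side of the outermost matches. Capitals mark the matches to the element, spelled here as GAAA, any 2 bases and GAAA, or on the other strand TTTC, any 2 bases and TTTC. Overlapping matches merge into 1 run of capitals.

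HERC5, chr4:88456974-88457074, plus strand: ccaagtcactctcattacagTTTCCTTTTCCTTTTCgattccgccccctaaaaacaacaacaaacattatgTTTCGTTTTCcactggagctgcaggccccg
DDX60, chr4:168318776-168318860, minus strand: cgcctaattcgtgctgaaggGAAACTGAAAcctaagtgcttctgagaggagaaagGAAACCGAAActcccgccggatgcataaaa
IFIT1, chr10:89392487-89392549, plus strand: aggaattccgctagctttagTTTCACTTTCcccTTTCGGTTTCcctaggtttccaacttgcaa
ISG15, chr1:1013364-1013419, plus strand: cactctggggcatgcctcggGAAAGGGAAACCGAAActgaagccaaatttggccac
GBP1, chr1:89065306-89065355, minus strand: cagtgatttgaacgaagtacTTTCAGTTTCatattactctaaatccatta
SAMD9, chr7:93118086-93118135, minus strand: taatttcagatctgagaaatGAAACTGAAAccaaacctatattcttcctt

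HERC5 held 3 matches, DDX60, IFIT1 and ISG15 held 2 each, and GBP1 and SAMD9 held 1 each. The window searched ran from 250 bases before to 50 bases after each annotated start, on both strands, and a gene can have several starts. The table held a promoter for 38 of the 48 genes, and 26 of the 38 had a match in at least 1 promoter. By promoter, 58.5% of 53 promoters of these genes had a match, and 3.57% of all 35116 promoters did. At least 2 matches were found in 30.2% of the members' promoters and in 0.259% of all promoters. The gamma-activated site, the shorter element bound after interferon gamma (spelled TTC, any 3 bases and GAA, which reads the same on both strands), was found in 28.3% of the members' promoters and in 7.66% of all.

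The 26 genes with a response element match had a median log2 ratio of 0.77 with shMMSET#2 and 0.55 with shMMSET#4, and the 12 without had medians of 0.24 and -0.02. Values overlapped widely: with shMMSET#2 the genes with a match lay between -0.98 and 3.08 and those without between -0.55 and 2.12. IFI35, OAS1 and CMPK2 had signals over 2.5-fold higher with each hairpin although their promoters held no match in this window. Outside the list, genes with a match were not more often higher than those without. Among 358 other genes that passed the filter and had a match, 13.7% were higher with shMMSET#2 and 12.3% with shMMSET#4. Among 9197 others without a match 15.7% and 16.5% were. Lower with shMMSET#2 and shMMSET#4 were 23.2% and 23.5% of those with a match, and 19.5% and 17.6% of those without. A match is a string of letters and not a measured binding site.

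**Figure D2:**
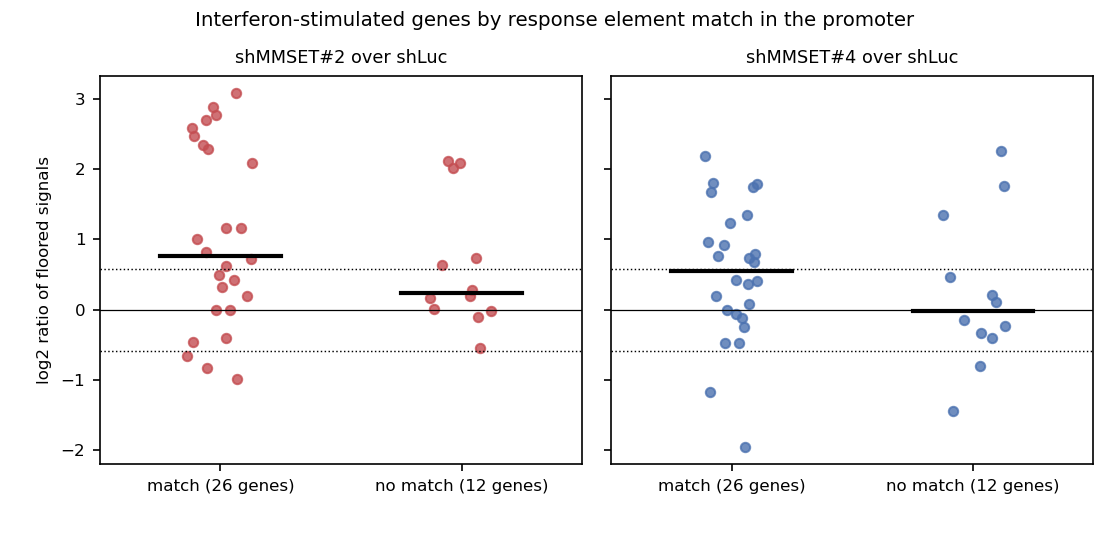
Log2 ratio of floored signals over shLuc (vertical axis) for the 38 interferon-stimulated genes with a promoter in the table, split by whether a response element match lies in a promoter, with 1 point a gene and a bar at the median. The medians are 0.77 and 0.24 with shMMSET#2 and 0.55 and -0.02 with shMMSET#4, and the points of the split groups overlap.

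The sensors of foreign RNA did not move as a group. IFIH1 encodes MDA5, a helicase that recognises long double-stranded RNA, and its signal was 1490 for shLuc, 3001 for shMMSET#2 and 2473 for shMMSET#4. These are 2.01 and 1.66 times the shLuc signal, although a pair of dim probe sets of the gene lay within 1.30-fold of shLuc, and the mean over its probe sets was under 1.5-fold with each hairpin (log2 0.39 and 0.41). DDX60, a helicase reported to assist these sensors, had signals of 99.5, 841 and 344, 8.45 and 3.46 times the shLuc signal and the largest fold of the list with shMMSET#2. RIGI went the other way on its brightest probe set, with signals of 316, 216 and 116, or 1.46-fold and 2.72-fold lower. Its other 2 probe sets had log2 ratios of 0.13 and 0.40 with shMMSET#2 and of -0.41 and -0.40 with shMMSET#4, so the probe sets agree on direction only with shMMSET#4. DHX58, which encodes the regulatory helicase LGP2, was at or under the floor on all 3 arrays.

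Of the transcription factors, IRF9 was called lower with shMMSET#4, and none was called with shMMSET#2. IRF9, the DNA-binding part of the complex that type I interferon activates, had a signal of 924 for shLuc, 1126 for shMMSET#2 and 532 for shMMSET#4. The shMMSET#4 array was thus 1.74-fold below shLuc and 2.12-fold below shMMSET#2, but these calls rest on the scaling. With the arrays scaled to equal medians the log2 ratio of IRF9 over shLuc was 0.61 with shMMSET#2, past 1.5-fold higher, and -0.42 with shMMSET#4, under 1.5-fold. IRF1, an early factor of the interferon gamma response, had signals of 919.6, 923 and 733, and IRF7, which amplifies interferon production, 227, 205 and 191. Both were within 1.26-fold of shLuc on each hairpin array.

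The 4 IFIT genes were all higher with each hairpin, beside 10.9% of all genes with shMMSET#2 and 11.6% with shMMSET#4. The IFIT genes lie in a cluster on chromosome 10 and encode proteins that bind viral RNA ends and hinder its translation. IFIT1 had signals of 131 for shLuc, 787 for shMMSET#2 and 332 for shMMSET#4, or 6.02-fold and 2.55-fold higher. IFIT2 had 106, 571 and 171, or 5.41-fold and 1.62-fold, and IFIT3 had 692, 3504 and 2417, or 5.07-fold and 3.49-fold. IFIT5 had the smallest folds of the family, 2.23 and 1.59, from signals of 223, 497 and 355. Second probe sets of IFIT2, IFIT3 and IFIT5 were higher with shMMSET#2 by 1.88-fold, 6.06-fold and 1.85-fold, and with shMMSET#4 by 1.34-fold, 3.37-fold and 1.02-fold. The calls of IFIT2 and IFIT5 with shMMSET#4 were lost with the mean over probe sets (log2 0.56 and 0.35), and that of IFIT2 also with the floor at the 60th percentile (0.54).

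The 5 genes of ISG15 conjugation attach that protein to others or remove it. Of the 5, 4 were higher with shMMSET#2 and 2, ISG15 and HERC5, with shMMSET#4. Over all genes 10.9% and 11.6% were higher. ISG15, the modifier itself, had a signal of 79.9 for shLuc, 589 for shMMSET#2 and 139 for shMMSET#4, so 7.37 and 1.74 times the control. With the floor at the 60th percentile its log2 ratio with shMMSET#4 was 0.24 and no longer past 1.5-fold. HERC5, the ligase that carries out most ISG15 conjugation in human cells, had signals of 683, 3786 and 3110, or 5.54-fold and 4.55-fold higher. HERC6, the protein-coding gene next to HERC5 on chromosome 4, had signals of 183, 205 and 197 on its brightest probe set, within 1.13-fold of shLuc. UBE2L6, the conjugating enzyme of the pathway, was 1.66-fold and 1.37-fold higher (signals of 1508, 2509 and 2072). USP18, the protease that removes ISG15 and restrains the receptor, had signals of 70.7, 148 and 82.1, or 2.09-fold and 1.16-fold higher, both inside the spread of its decile, 2.93-fold, and at that higher floor neither was past 1.5-fold. ISG15 and HERC5 thus parted between the hairpins: the shMMSET#4 array was 4.24-fold below shMMSET#2 for ISG15 and 1.22-fold below it for HERC5.

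Of the 6 enzymes that double-stranded RNA switches on or that act on it, 3 were higher with shMMSET#2 (OAS1, OAS2 and OASL). With shMMSET#4, 3 were higher (OAS1, OAS3 and OASL). Over all genes 10.9% were higher with shMMSET#2 and 11.6% with shMMSET#4. None was lower with either, beside 17.1% and 15.9% of all genes, which is near the background for so few genes. OAS proteins make the second messenger that activates RNase L. OAS1 had a signal of 65.5 for shLuc, 266 for shMMSET#2 and 221 for shMMSET#4, or 4.06-fold and 3.38-fold higher, and its second probe set was 2.67-fold and 1.80-fold higher. OASL, a relative that lacks this enzyme activity, had 137, 474 and 238, or 3.46-fold and 1.74-fold. OAS2 had 121, 186 and 141, or 1.54-fold and 1.17-fold. A second OAS2 probe set was 1.81-fold higher with shMMSET#2 and 1.65-fold with shMMSET#4, and another went from under the floor to signals of 66.6 and 98.3. OAS3 was at or under the floor with shLuc and shMMSET#2 and had a signal of 97.2 with shMMSET#4, at least 2.36-fold higher, a call lost with the floor at the 60th percentile. The kinase gene EIF2AK2 (PKR), which halts translation on sensing double-stranded RNA, had signals of 1620, 2174 and 1559, and its other 2 probe sets were below 1.5-fold as well. ADAR, which edits double-stranded RNA and keeps the sensors quiet, had signals of 7459, 6929 and 6736, or 1.08-fold and 1.11-fold lower.

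**Figure D3:**
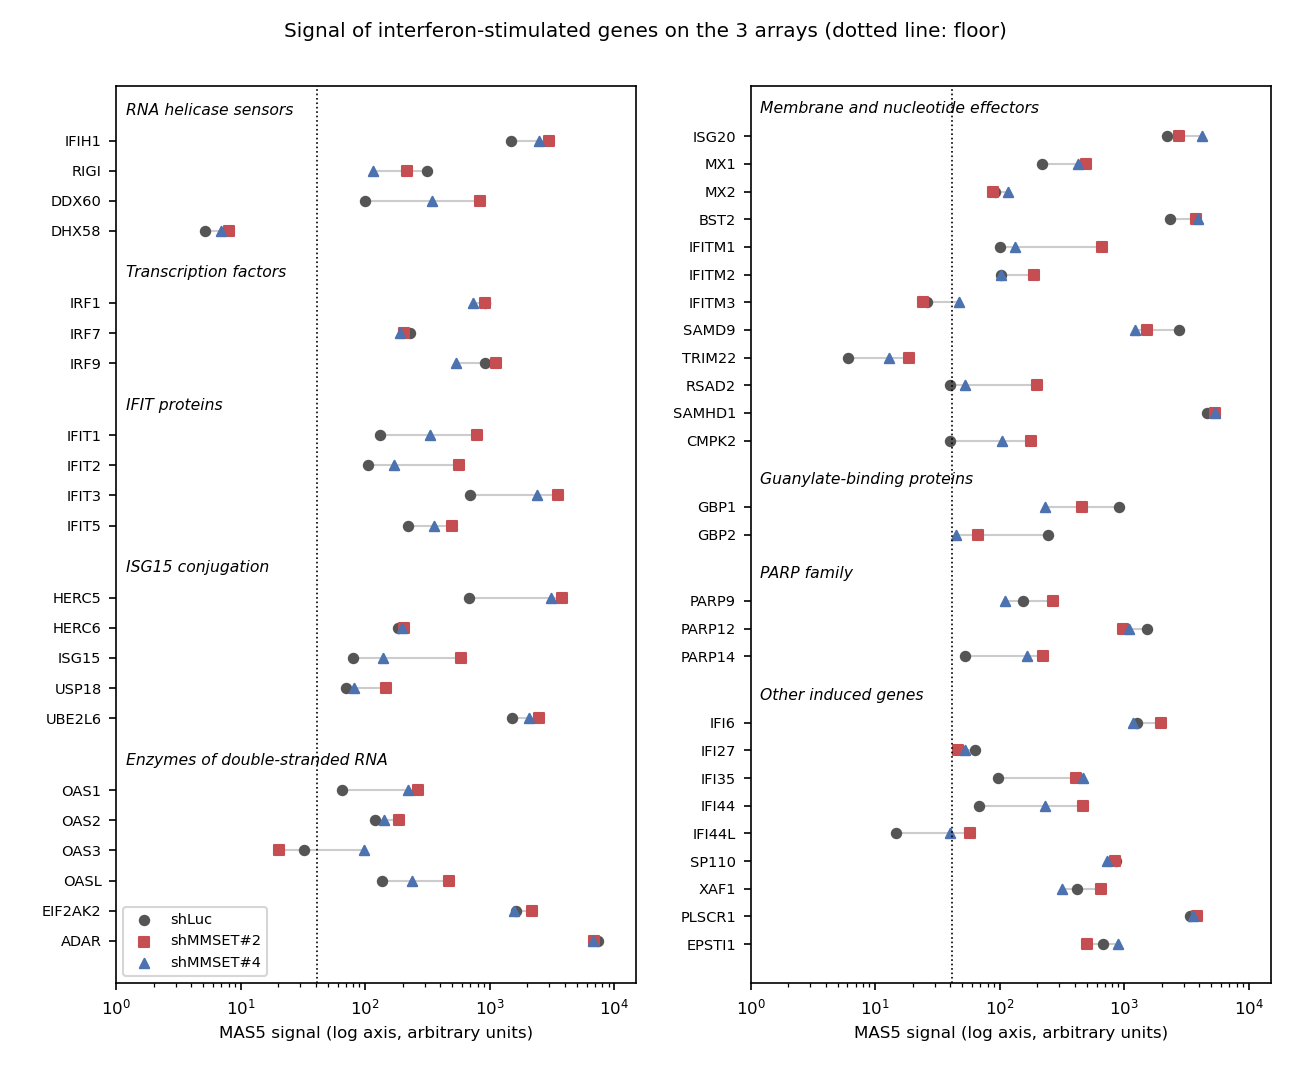
MAS5 signal (log axis) of the 48 interferon-stimulated genes on the shLuc (circle), shMMSET#2 (square) and shMMSET#4 (triangle) arrays, 1 array a group, ordered by role. For the IFIT genes, ISG15, IFITM1 and DDX60 the square lies farthest right, for GBP1, GBP2 and SAMD9 the circle does, and 4 genes have their shLuc signal at or under the floor and at least 1 hairpin signal above it by more than 1.4-fold.

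The effectors that act at membranes or on nucleotides were mixed. IFITM1, which blocks viral fusion at the cell surface, had a signal of 101 for shLuc, 660 for shMMSET#2 and 134 for shMMSET#4, or 6.52-fold and 1.32-fold higher. The gap between the hairpin arrays, 4.93-fold, was the largest of the list. IFITM2 had signals of 102, 190.3 and 102, 1.86-fold higher with shMMSET#2, and IFITM3 reached 47.2 with shMMSET#4 and was under the floor elsewhere. The 3 IFITM genes are close paralogs on chromosome 11, and their probe sets end in _s_at or _x_at, which marks sets that can read related transcripts, and whether signal is shared between them was not tested.

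RSAD2, which encodes viperin, and CMPK2, its neighbour on chromosome 2 that makes a substrate of viperin, were at the floor with shLuc. RSAD2 had signals of 200 with shMMSET#2 and 53.0 with shMMSET#4, at least 4.85-fold and 1.29-fold above shLuc, and a second probe set had signals of 53.6, 151 and 52.2. CMPK2 had 179 and 105, at least 4.34-fold and 2.55-fold above shLuc. These bounds move with the floor: at the 60th percentile the log2 ratios with shMMSET#2 were 0.77 for RSAD2 and 0.61 for CMPK2, and with shMMSET#4 both were 0. MX1, a dynamin-like guanosine triphosphatase that traps viral particles, was 2.23-fold and 1.94-fold higher, on signals of 220.5, 492 and 428. Its neighbour MX2 on chromosome 21 was 1.05-fold lower and 1.26-fold higher. BST2, the tetherin that holds budding virus on the cell, was 1.64-fold and 1.70-fold higher (2317, 3804 and 3928). ISG20, an exonuclease, was higher with shMMSET#4 on both its probe sets, by 1.90-fold and 1.72-fold, and within 1.25-fold of shLuc with shMMSET#2. SAMHD1, which depletes nucleotides, was within 1.16-fold of shLuc on its brightest probe set, while 2 of its other 5 probe sets were over 1.5-fold higher with each hairpin, and TRIM22 was at or under the floor throughout. SAMD9, an antiviral factor that limits translation, was lower: its signals were 2734, 1537 and 1211, or 1.78-fold and 2.26-fold lower, and its second probe set was 1.91-fold and 1.94-fold lower. With the arrays scaled to equal medians the log2 ratio of SAMD9 with shMMSET#2 was -0.51 and no longer past 1.5-fold.

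Both guanylate-binding protein genes of the list, GBP1 and GBP2, were lower with each hairpin. Over all genes 17.1% were lower with shMMSET#2 and 15.9% with shMMSET#4. GBP1 and GBP2 lie side by side on chromosome 1, encode guanosine triphosphatases that attack membranes of intracellular microbes, and respond most to interferon gamma. GBP1 had a signal of 902 for shLuc, 456 for shMMSET#2 and 233 for shMMSET#4, or 1.98-fold and 3.87-fold lower. Of its other 3 probe sets, 1 was under the floor, and the log2 ratios of the other 2 were -0.54 and -1.04 with shMMSET#2 and -1.91 and -2.18 with shMMSET#4. GBP2 had 246, 66.7 and 44.9, or 3.68-fold and 5.48-fold lower, and its second probe set was at least 6.08-fold lower with each. In contrast to the IFIT genes, the shMMSET#4 array was the lowest of the 3 for both GBP genes.

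The PARP genes of the list, which encode enzymes that add ADP-ribose to proteins, gave different values. PARP14 had a signal of 52.5 for shLuc, 223 for shMMSET#2 and 167 for shMMSET#4, or 4.24-fold and 3.18-fold higher, while a second dim probe set with a signal of 53.4 with shLuc was under the floor with each hairpin. With the floor at the 60th percentile the log2 ratios of PARP14 were 0.92 and 0.50, the latter under 1.5-fold. PARP9 had signals of 153, 270 and 109.8 on its brightest probe set, 1.77-fold higher with shMMSET#2 but 1.39-fold lower with the other hairpin. Its second probe set was 1.40-fold and 2.56-fold lower, so no direction with shMMSET#2 can be given. PARP12 was 1.58-fold and 1.39-fold lower (1534, 972 and 1099.9), and with the arrays scaled to equal medians its log2 ratio with shMMSET#2 was -0.34, under 1.5-fold.

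Of the other induced genes, IFI35 and IFI44 had the larger folds. IFI35, a partner of the protein NMI, had signals of 97.4 for shLuc, 412 for shMMSET#2 and 467 for shMMSET#4, or 4.23-fold and 4.80-fold higher, the largest fold of the list with shMMSET#4. IFI44 had 68.7, 470.0 and 231, or 6.85-fold and 3.36-fold. A second IFI44 probe set was above the floor with shMMSET#2 alone, at 78.7, and its neighbour IFI44L, at 14.8 with shLuc, reached 58.2 with shMMSET#2, at least 1.41-fold above the floor. IFI6, a mitochondrial survival protein, had signals of 1277, 1973 and 1179.97, 1.55-fold higher with shMMSET#2, which was just under 1.5-fold with quantile normalization (log2 0.58). XAF1, an antagonist of an apoptosis inhibitor, was 1.55-fold higher with shMMSET#2 on its brightest probe set and 2.21-fold lower on another, which are opposite calls. EPSTI1 had signals of 672, 507 and 898, and its second probe set 248, 159 and 302, so the shMMSET#2 array was the lowest on both. The scramblase gene PLSCR1 and the nuclear body gene SP110 differed from shLuc by less than 1.18-fold by their main probe sets, though 1 other SP110 probe set was 1.52-fold lower with shMMSET#2 and another 1.95-fold lower with shMMSET#4. In turn, IFI27 had signals of 63.2, 46.0 and 53.1 and did not pass the filter.

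The hairpin arrays differed directly. Of the 48 genes, 17 had a shMMSET#4 signal at least 1.5-fold below that of shMMSET#2 and 3 had one above it, beside 9.14% lower and 11.4% higher over all genes. Among the 42 that passed the filter, 17 were lower and 2 were higher, beside 12.3% and 15.6% of the genes that passed. RSAD2, which is among these 17, passed the filter through shMMSET#2 alone and so had to differ. The median log2 ratio of shMMSET#4 to shMMSET#2 was -0.37 over the 48 genes. After IFITM1 and ISG15, the widest gaps were those of RSAD2 (3.77-fold lower with shMMSET#4), IFIT2 (3.34-fold), PARP9 (2.46-fold), DDX60 (2.45-fold), IFIT1 (2.37-fold), IRF9 (2.12-fold) and XAF1 (2.05-fold). In contrast, IFI35, HERC5, OAS1, BST2 and MX1 were within 1.22-fold of each other on the hairpin arrays. Higher with shMMSET#4 were OAS3 (at least 2.36-fold), EPSTI1 (1.77-fold) and ISG20 (1.52-fold).

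Probe sets of a gene served as a check and are not replicates. In all, 25 of the 48 genes had more than 1, and the 48 genes had 88, of which 83 were above the floor on at least 1 array. Of the 15 such genes called with shMMSET#2, 11 had another probe set past 1.5-fold in the same direction, and of the 14 called with shMMSET#4, 7 did. The single gene with probe sets past 1.5-fold in opposite directions was XAF1, with shMMSET#2. The other 23 genes rest on 1 probe set each, DDX60, ISG15, HERC5, IFIT1, IFI35 and IFITM1 among them.

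**Figure D4:**
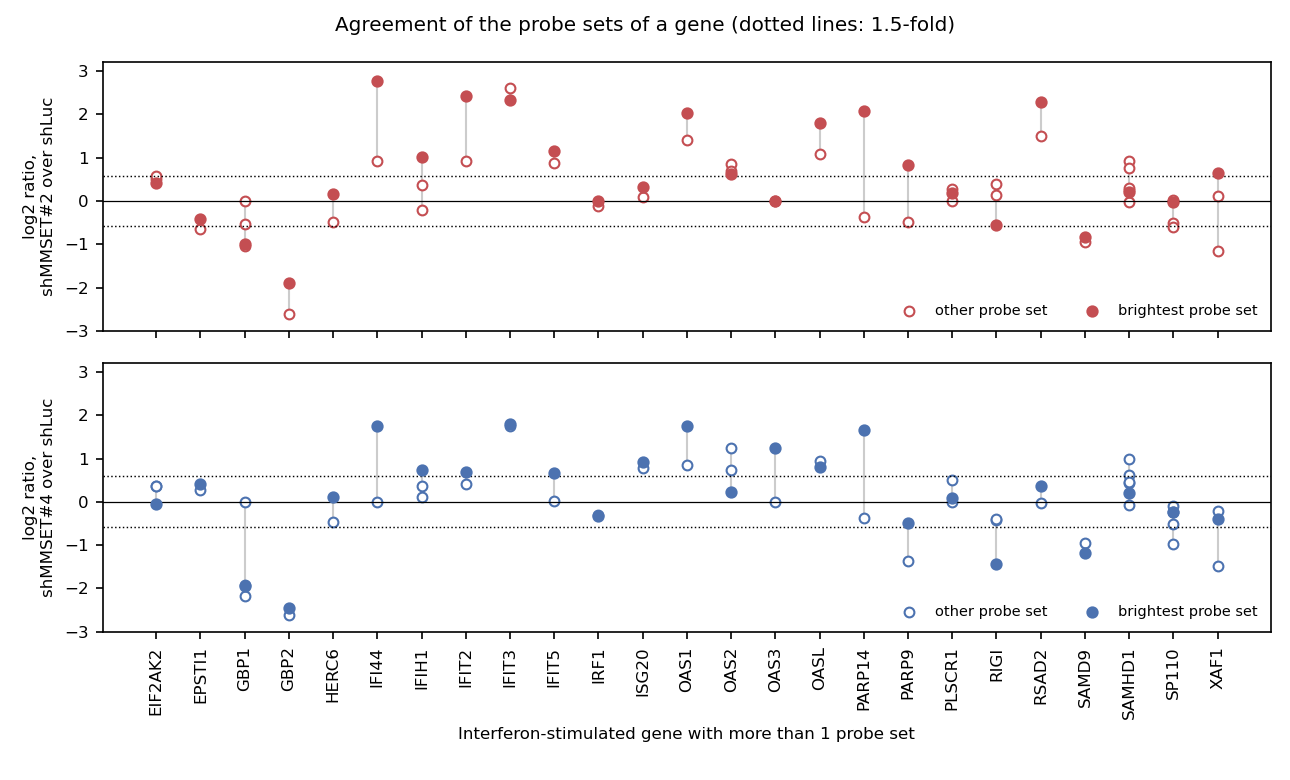
Log2 ratio over shLuc (vertical axis) of every probe set of the 25 interferon-stimulated genes with more than 1, with shMMSET#2 above and shMMSET#4 below. Filled points are the brightest probe sets and open points the others. IFIT3, OAS1, OASL, GBP2 and SAMD9 have all points on 1 side of 1.5-fold in both panels, and XAF1 spans both dotted lines in the upper panel.

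Genes that lie upstream of the response were called in both directions, and many of these calls change with the processing. The 7 interferon genes checked (IFNA1, IFNA2, IFNB1, IFNG, IFNL1, IFNE and IFNK) did not pass the filter. IFNB1, which infected cells make first, had signals of 6.42 for shLuc, 2.19 for shMMSET#2 and 3.51 for shMMSET#4, all under the floor. IFNA1, IFNA2, IFNE and IFNK were under the floor on all 3 arrays, IFNG was above it with shLuc alone, at 44.0, and IFNL1 had signals of 62.4, 61.7 and 10.7. The messages of these 7 genes were thus at or near the floor of this array in all 3 groups. Other interferon genes were not checked. Interferon protein was not measured.

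The receptor genes were measured above the floor. IFNAR1, a chain of the type I interferon receptor, had a signal of 1896 for shLuc, 705 for shMMSET#2 and 1107 for shMMSET#4, or 2.69-fold and 1.71-fold lower, the latter under 1.5-fold with equal medians (log2 -0.40). Its partner IFNAR2 had signals of 2622, 1467 and 2623, 1.79-fold lower with shMMSET#2 on its brightest probe set, an _x_at set. Without such sets IFNAR2 was lower with shMMSET#4 too (log2 -0.85), as it was with the mean over probe sets (-0.66), and with equal medians the ratio with shMMSET#2 was -0.52, under 1.5-fold. The interferon gamma receptor chains parted: IFNGR1 was 1.11-fold and 1.24-fold lower, or past 1.5-fold lower with shMMSET#4 without _x_at and _s_at sets (log2 -1.51), and IFNGR2 was 1.81-fold and 2.38-fold higher (938, 1697 and 2230). The lambda receptor gene IFNLR1 was 1.39-fold and 2.05-fold lower, and IL10RB, which it pairs with, 1.33-fold and 1.42-fold lower. With the mean over probe sets the log2 ratio of IFNLR1 with shMMSET#4 was -0.52, under 1.5-fold. Of the 13 interferon and receptor genes, 1 was higher and 2 were lower with shMMSET#2, and 1 was higher and 3 were lower with shMMSET#4. Over all genes 10.9% were higher and 17.1% lower with shMMSET#2, and 11.6% and 15.9% with shMMSET#4, so these few calls are near the background.

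Of the 7 signalling genes with a probe set, 3 were lower with shMMSET#2, none was called with shMMSET#4 and none was higher with either, beside 17.1% of all genes lower with shMMSET#2. JAK1, the kinase shared by the interferon receptors, had signals of 5283, 3256 and 5153, or 1.62-fold and 1.03-fold lower. JAK2 was 1.63-fold and 1.47-fold lower, and IRF5 had signals of 136, 39.4 and 198, at least 3.30-fold lower with shMMSET#2. The calls of JAK1 and JAK2 were lost with equal medians (log2 -0.38 for each) and with the mean over probe sets (-0.55 and -0.51), and that of IRF5 with the floor at the 60th percentile (-0.21). Without _x_at and _s_at sets JAK2 and IRF5 were both past 1.5-fold lower with shMMSET#4 (log2 -1.56 and -1.44). On its brightest probe set the log2 ratio of IRF5 with shMMSET#4 was 0.54, so its direction there depends on the probe set. TYK2, IRF2, IRF3 and IRF8 were within 1.44-fold of shLuc on each array.

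Of 15 sensors and adaptors of nucleic acid recognition, 3 were higher and 5 lower with shMMSET#2, beside 10.9% and 17.1% of all genes, and 3 were higher and 2 lower with shMMSET#4, beside 11.6% and 15.9%. MAVS, the adaptor that RIG-I and MDA5 signal through, had signals of 498, 246 and 407, or 2.03-fold and 1.22-fold lower. IFI16, a DNA sensor that interferon also induces, had 6331, 2783 and 3950, or 2.28-fold and 1.60-fold lower, the latter under 1.5-fold with equal medians (log2 -0.30). IKBKE, a kinase that activates IRF3, was 1.96-fold and 1.63-fold higher, and its relative TBK1 was 1.09-fold higher and 1.23-fold lower. STING1, the adaptor of cytosolic DNA sensing, was 1.74-fold and 1.15-fold higher, and CGAS was 1.14-fold and 1.02-fold lower. Of the toll-like receptors, TLR9 was at least 1.87-fold and 2.25-fold higher from the floor, TLR7 was 1.76-fold and 1.08-fold lower, and TLR3, which did not pass the filter, had signals of 106, 42.3 and 4.68, though its direction with shMMSET#2 turned under other scalings. MYD88 was 1.71-fold and 1.26-fold lower, TRAF3 1.16-fold and 1.66-fold higher, TRIM25 1.40-fold and 1.31-fold lower, and TICAM1 and ZBP1 were 1.37-fold to 1.49-fold higher with each hairpin. AIM2 was 1.06-fold lower and 1.35-fold higher. Other settings changed several of these calls. The mean over probe sets ended those of STING1 with shMMSET#2 (log2 0.48) and TRAF3 with shMMSET#4 (0.31). The floor at the 60th percentile ended those of TLR9 with each hairpin and of TLR7 with shMMSET#2. Equal medians ended those of MYD88 (-0.45) and TLR7 (-0.49) with shMMSET#2. They made TICAM1 and ZBP1 higher with each hairpin and AIM2 higher with shMMSET#4.

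Of 4 brakes on the signal with a probe set, PTPN6 was 1.70-fold and 1.60-fold higher and SOCS1 was 1.90-fold and at least 2.39-fold lower, although SOCS1 did not pass the filter. SOCS3 and PIAS1 were within 1.34-fold of shLuc.

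**Figure D5:**
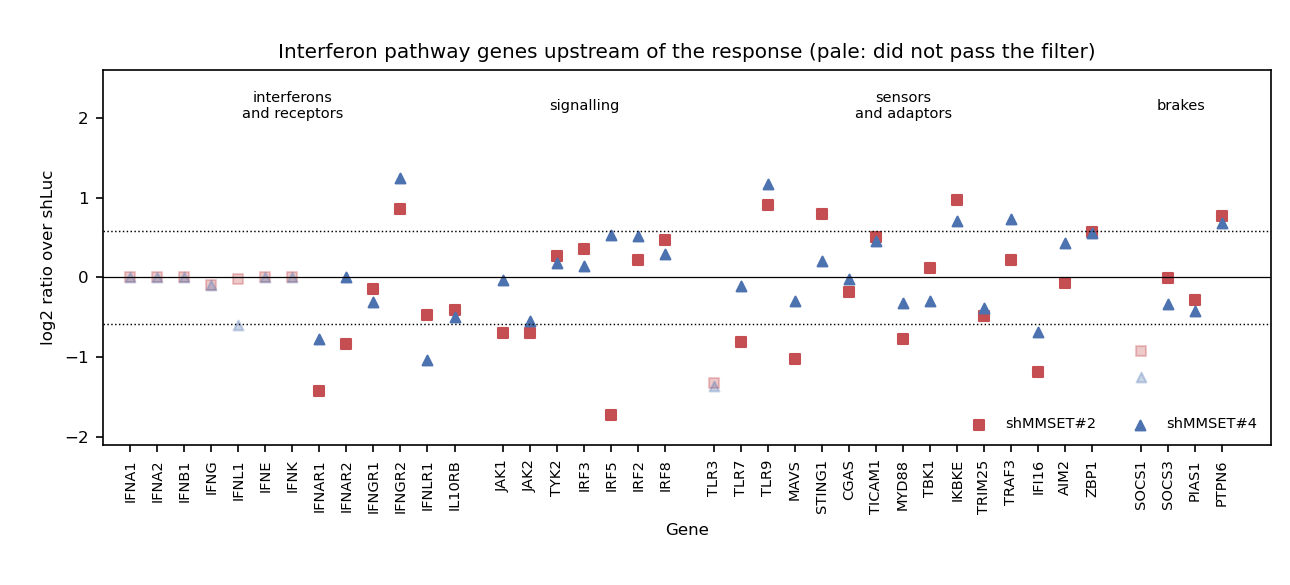
Log2 ratio over shLuc (vertical axis) of interferon pathway genes, grouped as interferons and receptors, signalling, sensors and adaptors, and brakes, with shMMSET#2 as squares and shMMSET#4 as triangles. The interferon genes, with signals at or near the floor, sit at or near 0 apart from IFNL1 with shMMSET#4 (-0.60), IFNAR1 lies below the lower dotted line (1.5-fold) with both hairpins, and IFNGR2 above the upper one.

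A further list of genes that interferon induces, none of them among the 49 or on the lists above, was measured beside the members. Of 58 with a probe set, 12 were higher (20.7%) and 10 lower (17.2%) with shMMSET#2, against 10.9% and 17.1% of all genes. With shMMSET#4, 7 were higher (12.1%) and 14 lower (24.1%), against 11.6% and 15.9% of all genes, and the median log2 ratios were 0.08 and -0.05. The 6 with the highest mean signal were LAP3, FAS, NT5C3A, PNPT1, TRIM14 and N4BP1. Of these, FAS, a death receptor, had signals of 4573, 3526 and 7949, 1.74-fold higher with shMMSET#4, and N4BP1 was 1.46-fold and 1.67-fold higher. LAP3, NT5C3A, PNPT1 and TRIM14 were within 1.43-fold of shLuc.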

How the data were processed

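RNA of the 3 groups was measured on Affymetrix arrays, 1 array a group at 48 h. The authors deposited linear MAS5 intensities per probe set, per the labels and the submitters' processing notes; settings and versions are not given in the sources used here. Its 54675 probe sets belong to the HG-U133 Plus 2.0 array, whereas the series text names a smaller one. Leaving out 62 control probe sets, 41091 had 1 symbol (41037 updated by Entrez identifier), 1801 had several and were not used, and 11721 were unnamed here.

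Trimmed means (2% at each end) were equal, so nothing was rescaled. Signals were floored at the 40th percentile (41.2) and log2-transformed. Genes passed the filter if the mean log2 signal exceeded that of the pooled median signal, 66.3. The named genes were every member with a probe set, NSD2, every gene of the upstream lists, and the 6 brightest of the further list. Members and lists were chosen with earlier results of these data known. A planned comparison of IFITM proteins was not made. The steps were tested on simulated data. Alternatives were scaling to equal medians, quantile normalization, other floors, filters and probe set rules, and a 2-fold threshold. Versions were matplotlib 3.10.9, pandas 2.3.3, numpy 2.4.6, scipy 1.17.1 and Python 3.11.15.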

Additional observations from a re-analysis of the deposited data

Results flagged for a closer look

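By their brightest probe sets and without rescaling, 6 interferon-stimulated genes that passed the filter had hairpin signals on opposite sides of shLuc and at least 1.5-fold apart from each other. This difference was not tested, since each group has 1 array. The share of all genes that meet both conditions was not computed, so the 6 cannot be read as a trait of this list. On the gap alone, shMMSET#4 fell under shMMSET#2 in 12.3% of the 11736 genes that passed and exceeded it in 15.6%. The log2 ratio of shMMSET#4 to shMMSET#2 was -0.74 for IFI6, -1.08 for IRF9, -0.90 for IFITM2, -1.30 for PARP9 and -1.04 for XAF1, and 0.82 for EPSTI1. The opposite sides do not hold for every setting. IFITM2 was level with shLuc with shMMSET#4 (log2 -0.00281), and with the arrays scaled to equal medians IFITM2 (0.38) and IFI6 (0.27) were above shLuc with shMMSET#4, as they were with shMMSET#2. A second PARP9 probe set was lower with both hairpins (-0.48 and -1.36), as was another XAF1 probe set (-1.15 and -1.48). EPSTI1 is the single gene of these with the higher signal on the shMMSET#4 array.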

How the results depend on the processing

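Scaling the arrays to equal medians raised the median log2 ratio of all genes that passed to 0.29 with shMMSET#2 and 0.36 with shMMSET#4. The share of these genes called higher rose with it from 15.7% to 30.9% and from 16.4% to 35.0%. The members' medians became 1.05 and 0.66, with 28 and 24 higher, and 2 rather than 4 lower with shMMSET#2. A filter at the 75th percentile left 19 members, of which 7 were higher and 3 lower with shMMSET#2 (median 0.29), beside 16.7% and 15.0% of all such genes, and 5 higher and 3 lower with shMMSET#4, beside 16.3% and 12.7%, where the median turned to -0.056. At 2-fold, 1 member was lower with shMMSET#2 and 9 were higher with shMMSET#4. With the floor removed or set at the 60th percentile, quantile normalization, the other probe set rules and the other filters, these counts stayed within 1.5 times, but single calls changed. With the floor at the 60th percentile USP18 lost its call with shMMSET#2, and CMPK2, IFIT2, ISG15, OAS3 and PARP14 lost theirs with shMMSET#4. With the mean over probe sets IFIH1, PARP9 and XAF1 lost theirs with shMMSET#2, and IFIH1, IFIT2 and IFIT5 with shMMSET#4. The same rule made PARP9 (log2 -0.92) and XAF1 (-0.70) lower and OAS2 (0.74) higher with shMMSET#4. With it, 15 of the 42 were higher and 7 lower with shMMSET#4, beside 12.2% and 15.4% of such genes. Without _x_at and _s_at sets only 30 members passed the filter. With shMMSET#2, 17 of them were higher and 3 lower, beside 15.4% and 22.2% of such genes. With shMMSET#4, 12 were higher and 5 lower, beside 15.5% and 21.2%. DDX60, ISG15, IFI35 and IFITM1 have no other probe set, so this setting did not check them. Among members that kept a probe set, PARP9 lost its call with shMMSET#2, and IFI44 and RIGI with shMMSET#4. Equal medians ended the lower calls of PARP12 and SAMD9 with shMMSET#2 and of IRF9 with shMMSET#4, and added 3 higher calls with shMMSET#2 and 7 with shMMSET#4. A few ratios past 1.5-fold in the main setting turned in sign. This held for PARP9 with shMMSET#2 without _x_at and _s_at probe sets (-0.48). It held for XAF1 and SOCS1 with shMMSET#2 with the mean over probe sets (-0.13 and 0.042). It also held for TLR3 with shMMSET#2 under median scaling (0.45) and quantile normalization (0.46). Some smaller ratios turned too, such as IRF5 with shMMSET#4 without _x_at and _s_at sets (0.54 to -1.44). The cause was not tested. No paired analysis was possible because each group has 1 array. The number of arrays limits the precision.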
